A study of Mus musculus with 8 samples.

Results

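H3K9me3 was counted in 8 boxes placed around maternally methylated germline differentially methylated regions (DMRs) of the mouse genome that lie outside chromosomes 6 and 7. The rule for the boxes uses positions alone, in mm9 coordinates, and no measured value. All 8 are described here, out of 375480 windows of 6 kb with enough tags to be tested. They are the boxes of *Nnat* (chr2:157384001-157390000), *Gnas* (chr2:174119001-174127000), *Zrsr1* (chr11:22870001-22876000), *Grb10* (chr11:11923001-11929000), *Plagl1* (chr10:12808001-12814000), *Impact* (chr18:13128001-13134000), *Igf2r* (chr17:12932001-12938000) and *Peg13* (chr15:72636001-72642000). The *Gnas* box covers 8 kb and the others cover 6 kb each.

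The cells were JM8 mouse ES cells (subline JM8.N4 in the paper), from the C57BL/6N strain, with 1 conditional and 1 constitutively disrupted (*tm2*) allele of *Setdb1*, so that the untreated cells already carried a single working copy. Untreated cells are *tm1c/tm2* in the paper and *tm1a/tm2* in the labels. Treated cells are *tm1d/tm2* in the paper, whereas the labels give *tm1c/tm2* and describe these cells as null. CreERT2 expressed from *Rosa26* was activated with 0.8 μM 4′OHT for 48 h, which converts the conditional allele to a null allele. Libraries were made before treatment (*T* = 0) and 2, 4 and 6 days after its start (*T* = 2d, 4d and 6d, written as days 2, 4 and 6). An Upstate-type antibody, a gift similar to a commercial one of lot 4861, was used at all 4 time points, and Abcam lots 58206 and 638466 were used before treatment and on day 6. Of the 8 libraries no pair shares its antibody and time point, so that each Fisher's exact test sets single libraries, and not conditions, against each other. A library held 6887819 tags (Upstate-type), 8503927 (lot 58206) or 12194174 (lot 638466). Libraries of control cells and input were not analysed here, later libraries were set against the untreated library of their own antibody, and the identity of the cells was not checked against marker genes.

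Imprinted genes are expressed from 1 parental allele, and the choice is made by DNA methylation that a germ cell places on a DMR. At a maternally methylated DMR the maternal copy carries the methylation. In ES cells this copy is bound by the zinc finger protein ZFP57, which recognises a methylated hexamer and recruits KAP1 (TRIM28), and KAP1 in turn recruits SETDB1, the methyltransferase that places H3K9me3. The unmethylated paternal copy usually acts as a promoter. In an inbred strain the parental copies have the same sequence, so the tags of both were counted together. In bulk chromatin, fewer cells with the mark and less mark in each cell cannot be told apart.

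The 8 regions differ in what they control. *Nnat* encodes a small membrane protein of the brain and lies within an intron of *Blcap*. The *Gnas* box is that of the antisense transcript *Nespas*, whose DMR also serves the transcript of the large G protein subunit XLαs. *Zrsr1* is a retrogene of a splicing factor family and lies within *Commd1*. *Grb10* encodes an adaptor that restrains growth signalling from insulin-type receptors, and its DMR lies at a promoter used in neurons. *Plagl1* (also called *Zac1*) encodes a zinc finger factor that slows the cell cycle, and *Impact* encodes a regulator of the translational kinase GCN2. *Igf2r* encodes the receptor that removes IGF2, and its DMR is an intronic promoter of the non-coding RNA *Airn*, which silences *Igf2r* on the paternal copy. *Peg13* is a non-coding RNA within *Trappc9*.

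Promoters of transcripts that belong to these imprinted regions are shown here because the hexamer of ZFP57, TGCCGC, can be looked for in them. Sequences were taken from RefSeq (build GRCm38.p6) by symbol, with 250 bases before and 50 bases after the start, and no coordinate was moved between builds, so whether a window lies in its box was not checked. Of 8 transcripts sought (*Nnat*, *Nespas*, *Zrsr1*, *Grb10*, *Plagl1*, *Impact*, *Airn* and *Peg13*), 5 had an entry in the set of promoter windows used here. That set held none for *Nespas*, *Impact* and *Peg13*, which says nothing of their annotation elsewhere. Bases that match TGCCGC on either strand (GCGGCA where it lies on the other strand) are in capitals.
Nnat, chr2:157559828-157560127, plus strand: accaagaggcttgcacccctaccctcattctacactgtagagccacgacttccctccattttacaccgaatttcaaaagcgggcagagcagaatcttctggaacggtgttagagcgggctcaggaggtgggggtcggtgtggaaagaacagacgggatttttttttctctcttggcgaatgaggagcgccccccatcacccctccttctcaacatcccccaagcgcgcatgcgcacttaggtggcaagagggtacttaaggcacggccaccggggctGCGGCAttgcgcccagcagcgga
Plagl1, chr10:13090582-13090881, plus strand: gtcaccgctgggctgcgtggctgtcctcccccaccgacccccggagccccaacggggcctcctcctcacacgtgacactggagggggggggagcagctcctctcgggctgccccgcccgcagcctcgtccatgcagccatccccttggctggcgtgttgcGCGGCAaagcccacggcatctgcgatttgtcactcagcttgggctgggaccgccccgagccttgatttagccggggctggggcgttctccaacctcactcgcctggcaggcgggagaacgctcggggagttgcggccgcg
Zrsr1, chr11:22971755-22972054, plus strand: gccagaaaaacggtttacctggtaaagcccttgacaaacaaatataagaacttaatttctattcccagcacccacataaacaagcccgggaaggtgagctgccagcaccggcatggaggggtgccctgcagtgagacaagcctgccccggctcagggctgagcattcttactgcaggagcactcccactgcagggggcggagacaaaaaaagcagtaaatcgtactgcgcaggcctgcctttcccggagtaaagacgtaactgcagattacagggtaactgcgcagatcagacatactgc
Airn, chr17:12741061-12741360, plus strand: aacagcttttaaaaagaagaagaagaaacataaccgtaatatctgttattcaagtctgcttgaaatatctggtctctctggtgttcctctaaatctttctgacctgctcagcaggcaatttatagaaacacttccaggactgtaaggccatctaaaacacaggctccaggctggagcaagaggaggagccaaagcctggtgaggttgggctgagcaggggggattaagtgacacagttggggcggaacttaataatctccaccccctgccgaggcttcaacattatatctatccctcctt

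The hexamer occurred 1 time in the *Nnat* window (bases 278 to 283), 1 time in that of *Plagl1* (bases 161 to 166) and 1 time in 1 of 2 windows of *Grb10* (bases 275 to 280), in each case on the strand opposite to the transcript. The 2 *Grb10* windows lie farther apart than the length of the box, so no more than 1 of them can lie in it, and which one was not determined. It was not among the letters of the *Zrsr1* and *Airn* windows. Of all 32851 promoter windows of the same length, 11.6% held it at least 1 time. The CpG content of these windows was 3 CpGs for *Airn*, 10 for *Zrsr1*, 17 for *Nnat*, 26 for *Plagl1*, 45 for the *Grb10* window with the hexamer and 9 for the other *Grb10* window, beside a median of 7 over all windows. A match in a promoter window is a description and does not show binding.

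Before treatment, the boxes that stood out most from the genome were *Gnas*, *Peg13* and *Zrsr1*. Levels are given as tags per kb divided by the median over windows of the same library, with exact Poisson 95% intervals that cover counting error only. With the Upstate-type antibody *Peg13* was at 4.0 times the median (interval 2.95 to 5.3), *Gnas* at 3.88 (2.97 to 4.97) and *Zrsr1* at 3.42 (2.45 to 4.64). *Nnat* (2.25), *Igf2r* (2.08) and *Impact* (2.0) followed. The lowest levels were those of *Plagl1* (1.33) and *Grb10* (1.17), whose intervals reached below the median.

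With lot 58206 the order was *Gnas* at 6.11 (5.21 to 7.13), *Zrsr1* at 4.5 (3.62 to 5.53), *Peg13* at 3.2, *Impact* at 3.1, *Plagl1* at 3.0, *Nnat* at 2.4, *Grb10* at 2.3 and *Igf2r* at 1.8 times the median. With lot 638466 the levels were closer together, from *Gnas* at 2.52 (2.06 to 3.05) and *Peg13* at 2.45 (1.93 to 3.07) down to *Plagl1* at 1.45 and *Impact* at 1.13 (0.786 to 1.57). In each of the 3 orders the intervals of every pair of neighbours overlapped. *Gnas*, *Peg13* and *Zrsr1* were the first 3 with each antibody, and *Impact* stood 4th with lot 58206 and last with lot 638466.

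**Figure D1:**
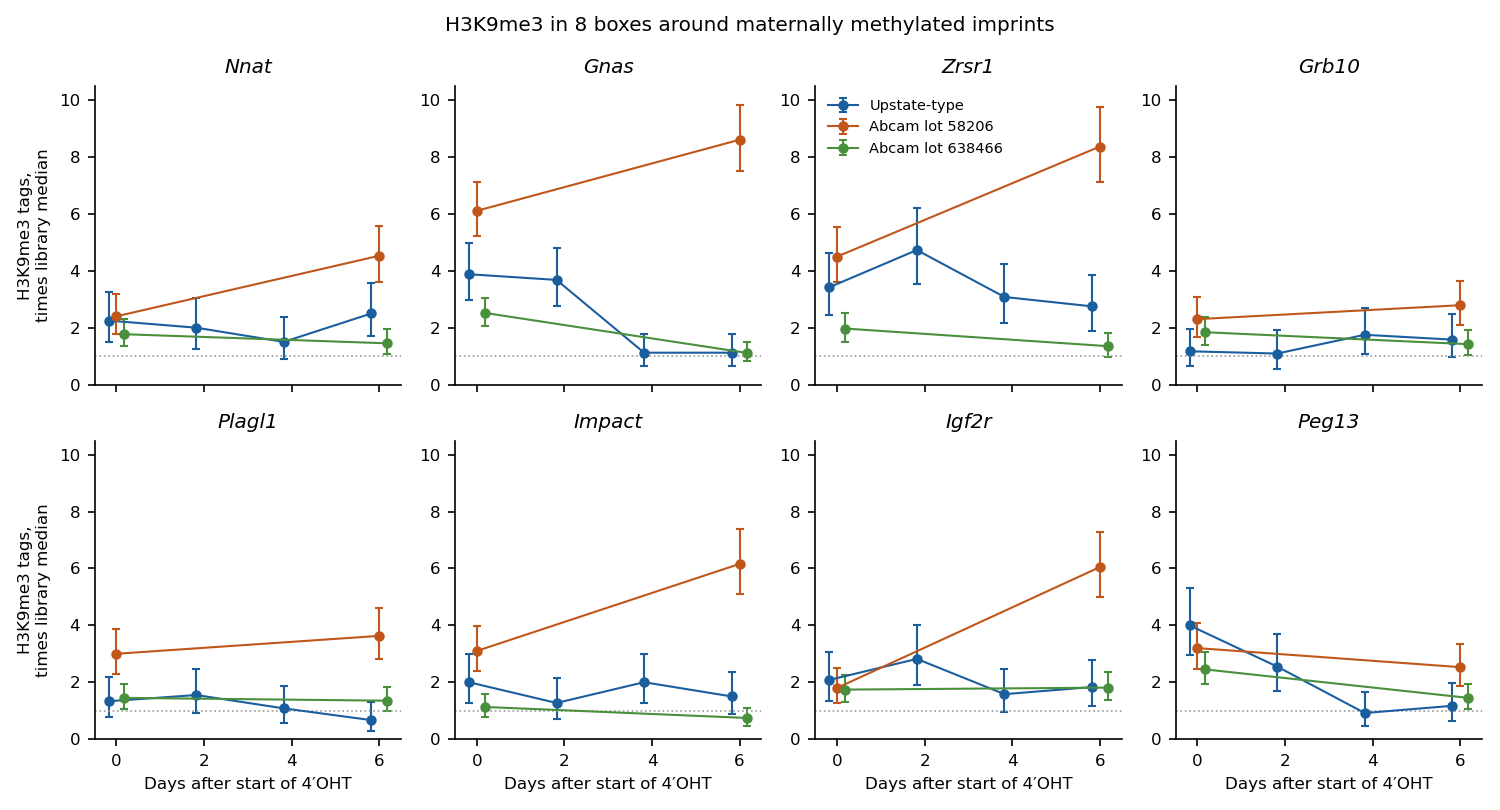
H3K9me3 tags per kb of each box, as multiples of the median window of the same library (dotted line at 1), against days after the start of 4′OHT. Points are single libraries, shifted slightly sideways for legibility, and bars are exact Poisson 95% intervals; the Upstate-type levels of *Gnas* and *Peg13* fall to near 1 by day 4, while the lot 58206 levels of *Nnat*, *Zrsr1*, *Impact* and *Igf2r* are higher at day 6.

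Whether a box stands above its surroundings was asked by comparing its tag density with that of the 20 kb on each side (exact binomial test, Benjamini-Hochberg adjusted over all windows). With lot 58206 at *T* = 0, 5 of the 8 boxes were denser than their flanks at adjusted *P* below 0.05, against 3.63% of all windows. These were *Gnas* (3.7-fold, exact binomial test, adjusted *P* = 6.63e-29), *Plagl1* (2.72-fold), *Impact* (2.57-fold), *Peg13* (2.52-fold) and *Zrsr1* (2.17-fold). With lot 638466, *Gnas* (1.93-fold, exact binomial test, adjusted *P* = 3.89e-05) and *Peg13* (1.91-fold, adjusted *P* = 0.000798) were denser, against 1.95% of all windows. With the Upstate-type antibody only *Peg13* was denser (2.83-fold, exact binomial test, adjusted *P* = 1.57e-06), against 5.54% of all windows. *Gnas* was level with its flanks with that antibody (1.01-fold, exact binomial test, adjusted *P* = 1.0). These flanks were uneven, with 234 tags in the 20 kb of lower coordinates and 72 in the 20 kb of higher coordinates.

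The *Impact* box lay at the edge of a broad stretch of Upstate-type tags. It held 24 tags at *T* = 0, a density 0.269 times that of its flanks (exact binomial test, adjusted *P* = 1.77e-12), where 5.1% of all windows were less dense than their flanks. The 20 kb on the side of higher coordinates held 490 Upstate-type tags and the 20 kb on the other side held 104. In the same 20 kb lot 58206 had 80 tags and lot 638466 had 112, beside 81 and 104 on the other side. The Abcam lots thus had no such asymmetry, and at this box the comparison with the flanks rests on different surroundings in the Upstate-type libraries.

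With the Upstate-type antibody followed over time, H3K9me3 was lower at *Gnas* and *Peg13* on days 4 and 6 than at *T* = 0, and no other box passed the test. A box was called changed where Fisher's exact test (two-sided), on its tags and the remaining tags of the libraries, gave *P* below 0.01 and the change exceeded 1.5-fold. At day 2, 0 of 8 boxes were called in either direction, against 1.03% of all windows called lower and 0.975% called higher, and 1 box (*Peg13*) was lower at an unadjusted *P* below 0.05, as were 3.55% of all windows, while 3.02% were higher. At day 4, 2 of 8 were called lower, against 2.58% of all windows, and 0 higher, against 1.36%. At day 6 the same 2 boxes were called lower, against 3.88% of all windows, and 0 higher, against 2.65%. Of the 8 boxes 5 were below 1 at day 2, and 6 at day 4 and at day 6, the 2 called ones among these 6. The median ratio over the 8 boxes was 0.864, 0.786 and 0.778 at the 3 time points, beside 0.937, 1.0 and 1.0 over all windows. These 3 comparisons share the *T* = 0 library. The median window held 12 Upstate-type tags, 20 of lot 58206 and 31 of lot 638466 at *T* = 0, fewer than any of the 8 boxes, and with fewer tags a change is called less readily.

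*Gnas* held 62 Upstate-type tags at *T* = 0, 54 on day 2, 18 on day 4 and 18 on day 6. The first pair of libraries was high and the second pair was low, with no overlap of their counting intervals (40.6 or more against 28.4 or fewer). This split was chosen after the values were seen and uses the tags of the calls, so it adds nothing to them. The share of all windows with such a split was not counted. The ratio to *T* = 0 was 0.871 on day 2 (Fisher's exact test, *P* = 0.516) and 0.29 on day 4 and day 6 (interval 0.162 to 0.497; Fisher's exact test, *P* = 8.14e-07, adjusted over all windows 0.000208 and 0.000119). The step from day 2 to day 4 was itself called (ratio 0.333, Fisher's exact test, *P* = 2.57e-05, adjusted *P* = 0.0118), where 1.35% of all windows were called lower. The step from day 4 to day 6 had a ratio of 1.0 with an interval from 0.491 to 2.04. The flank of lower coordinates held 234, 278, 284 and 248 tags over the 4 libraries, and that of higher coordinates held 72, 66, 59 and 39. Against both flanks together (306, 344, 343 and 287 tags) the box was lower on day 4 (0.259, Fisher's exact test, adjusted *P* = 0.000242) and on day 6 (0.31, adjusted *P* = 0.00552), where 0.322% and 0.446% of all windows were lower. With flanks of 10 kb these ratios were 0.329 and 0.413 and the adjusted *P* values 0.0526 and 0.24. The size of the fall depended on the limits of the box: the ratios to *T* = 0 were 0.102 and 0.163 with the box narrowed by 1 kb at each side, and 0.597 and 0.389 with it widened.

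*Peg13* held 48 Upstate-type tags at *T* = 0, 28 on day 2, 11 on day 4 and 14 on day 6. The library on day 2 lay between the others, with a ratio of 0.583 that was not called (interval 0.352 to 0.949; Fisher's exact test, *P* = 0.0286, adjusted *P* = 0.643). The ratio was 0.229 on day 4 (interval 0.107 to 0.447; Fisher's exact test, *P* = 1.24e-06, adjusted *P* = 0.000298) and 0.292 on day 6 (0.149 to 0.538; *P* = 1.74e-05, adjusted *P* = 0.0015). The step from day 2 to day 4 was called by the unadjusted rule (ratio 0.393, Fisher's exact test, *P* = 0.00948, adjusted *P* = 0.37), and that from day 4 to day 6 had a ratio of 1.27 with an interval from 0.537 to 3.1. Relative to its flanks the box was at 0.275 on day 4 (Fisher's exact test, adjusted *P* = 0.0394; 0.266 and 0.126 with flanks of 10 kb) and at 0.358 on day 6 (adjusted *P* = 0.138). Its density went from 2.83 times that of the flanks at *T* = 0 to 1.01 times on day 6.

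Of the other 6 boxes all but *Zrsr1* held few Upstate-type tags. None of the 6 stood above its flanks with this antibody at *T* = 0, and neither did *Gnas*. *Zrsr1* held 41, 52, 37 and 33 tags in the order of the time points, with a ratio of 0.805 on day 6 (interval 0.493 to 1.3; Fisher's exact test, *P* = 0.416). *Nnat* held 27, 22, 18 and 30 tags, with a ratio of 1.11 on day 6 (0.638 to 1.94). *Igf2r* held 25, 31, 19 and 22 tags (0.88 on day 6, 0.473 to 1.63). In these 3 boxes the counting intervals of all 4 time points overlapped.

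*Impact* held 24, 14, 24 and 18 tags (0.75 on day 6, interval 0.384 to 1.44). *Plagl1* held 16, 17, 13 and 8 tags, with the lowest library on day 6 (0.5, 0.185 to 1.24; Fisher's exact test, *P* = 0.152). *Grb10* held 14, 12, 21 and 19 tags (1.36 on day 6, 0.645 to 2.93). At these counts the rule can see only large falls: a call would have needed 2 tags or fewer at *Grb10*, 3 or fewer at *Plagl1*, 8 or fewer at *Impact*, 9 or fewer at *Igf2r* and 10 or fewer at *Nnat*. At *Zrsr1* a fall to 20 tags, a ratio of 0.488, would have been enough. Summed without *Gnas* and *Peg13*, a choice made after their values were seen, the 6 boxes held 147, 148, 132 and 130 tags and their flanks 1535, 1757, 1541 and 1638.

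**Figure D2:**
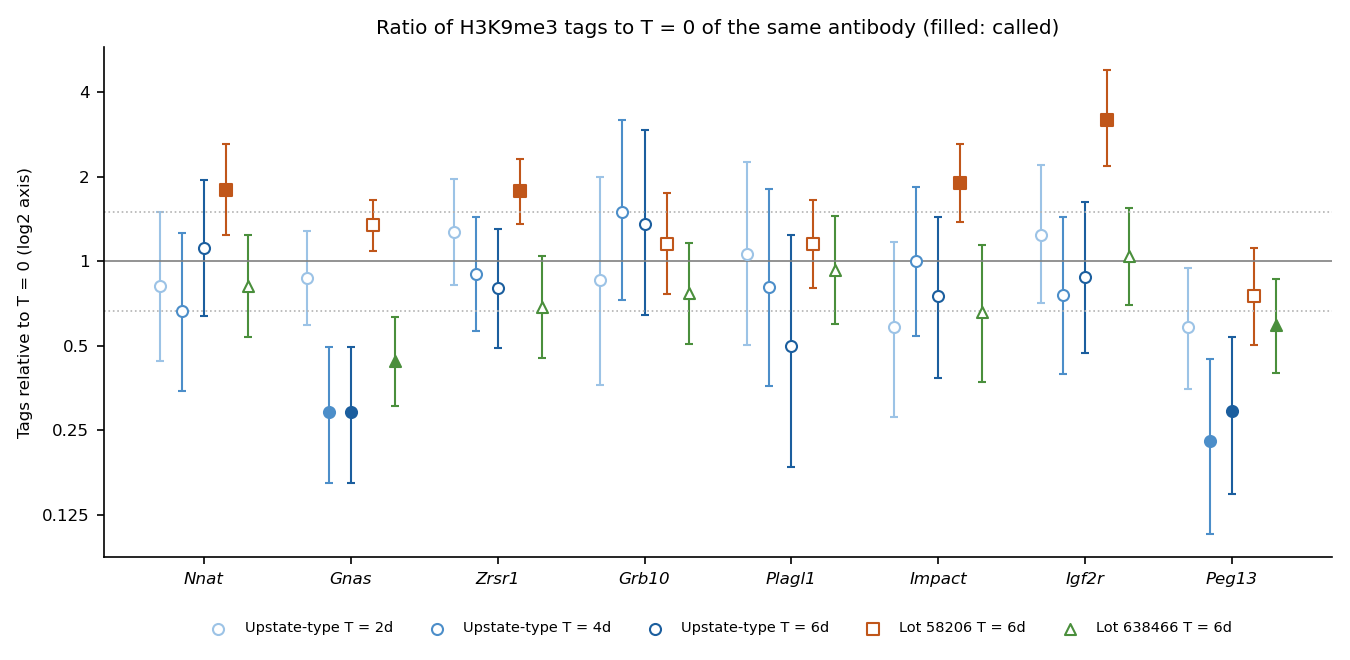
Ratio of tags to *T* = 0 of the same antibody for each box, on a log2 axis, with exact 95% intervals. Filled symbols were called (*P* below 0.01 and over 1.5-fold, limits dotted): *Gnas* and *Peg13* below 1 with the Upstate-type antibody and lot 638466, and *Nnat*, *Zrsr1*, *Impact* and *Igf2r* above 1 with lot 58206.

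With lot 638466, *Gnas* and *Peg13* were again the boxes called lower on day 6, 2 of 8 against 2.44% of all windows, and 0 were called higher, against 1.41%. *Gnas* went from 104 tags to 46, a ratio of 0.442 (interval 0.306 to 0.632; Fisher's exact test, *P* = 2.47e-06, adjusted *P* = 0.00147). *Peg13* went from 76 tags to 45, a ratio of 0.592 (0.4 to 0.867; Fisher's exact test, *P* = 0.00615, adjusted *P* = 0.214), which did not pass at an adjusted *P* below 0.05, as 0.62% of all windows did in this direction. Beside their flanks the ratios were 0.489 (Fisher's exact test, adjusted *P* = 0.124) and 0.676 (adjusted *P* = 0.778). On day 6 their densities were 0.943 and 1.29 times those of the flanks.

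The remaining boxes had day 6 ratios between 0.657 and 1.04 with lot 638466. *Zrsr1* went from 61 tags to 42 (0.689, interval 0.453 to 1.04; Fisher's exact test, *P* = 0.0756) and its flanks from 305 to 226 (0.741). *Impact* went from 35 to 23 (0.657, 0.371 to 1.14), *Grb10* from 57 to 44 (0.772, 0.509 to 1.16) and *Nnat* from 55 to 45 (0.818, 0.539 to 1.24). *Plagl1* had 45 and 42 tags (0.933, 0.598 to 1.45) and *Igf2r* had 54 and 56 (1.04, 0.701 to 1.54). The counting intervals of these 6 boxes overlapped between the time points, and the intervals of 4 ratios include the ratio of *Peg13* (*Nnat*, *Zrsr1*, *Grb10* and *Impact*).

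Lot 58206 gave a different pattern: 4 of 8 boxes were called higher on day 6, against 2.16% of all windows, and 0 were called lower, against 2.51%. *Igf2r* went from 36 tags to 115, a ratio of 3.19 (interval 2.18 to 4.78; Fisher's exact test, *P* = 8e-11, adjusted *P* = 1.18e-07). *Impact* went from 62 to 117 (1.89, 1.38 to 2.61; Fisher's exact test, adjusted *P* = 0.00583). *Zrsr1* went from 90 to 159 (1.77, 1.36 to 2.31; adjusted *P* = 0.00238). *Nnat* went from 48 to 86 (1.79, 1.24 to 2.61; Fisher's exact test, *P* = 0.0013), which missed the adjusted threshold (adjusted *P* = 0.0626). In all 4 the counting intervals of the *T* = 0 and day 6 libraries did not overlap. These boxes were already called on the same tags, so this adds nothing to the calls. The share of all windows without overlap was not counted.

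At *Gnas* lot 58206 had 163 tags and then 218, a ratio of 1.34 (1.09 to 1.65; Fisher's exact test, *P* = 0.0056), short of the 1.5-fold limit. *Plagl1* had 60 and 69 tags, *Grb10* 46 and 53 (each with a ratio of 1.15), and *Peg13* 64 and 48 (0.75, interval 0.505 to 1.11), the only box below 1. The flanks of the 8 boxes summed to 1606 tags in both libraries. The flanks of single boxes did not all keep their tags: on the side of higher coordinates they went from 152 to 193 at *Nnat* and from 186 to 234 at *Zrsr1*, and on the other side from 78 to 59 and from 91 to 56. At *Impact* the side of higher coordinates went from 80 tags to 51 and the other side from 81 to 87. At *Igf2r* these sides went from 69 to 80 and from 82 to 87. Relative to their flanks *Igf2r* was at 2.89 (Fisher's exact test, adjusted *P* = 0.000417) and *Impact* at 2.2 (adjusted *P* = 0.00757), where 0.86% of all windows were higher than their flanks. *Zrsr1* was at 1.69 (Fisher's exact test, adjusted *P* = 0.0566) and *Nnat* at 1.64 (adjusted *P* = 0.306), and neither passed.

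The Abcam libraries also changed across the genome by day 6, in opposite directions. Windows at 3 or more times the library median rose from 3730 at *T* = 0 to 9980 on day 6 with this lot, and their share of the tags from 3.57% to 10.8%. With lot 638466 the number went from 319 to 79 and the share from 0.493% to 0.224%, and with the Upstate-type antibody the number went from 34499 to 33906. The part of these shifts in the lot 58206 rises at *Nnat*, *Zrsr1*, *Impact* and *Igf2r*, and in the lot 638466 falls at *Gnas* and *Peg13*, was not tested.

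**Figure D3:**
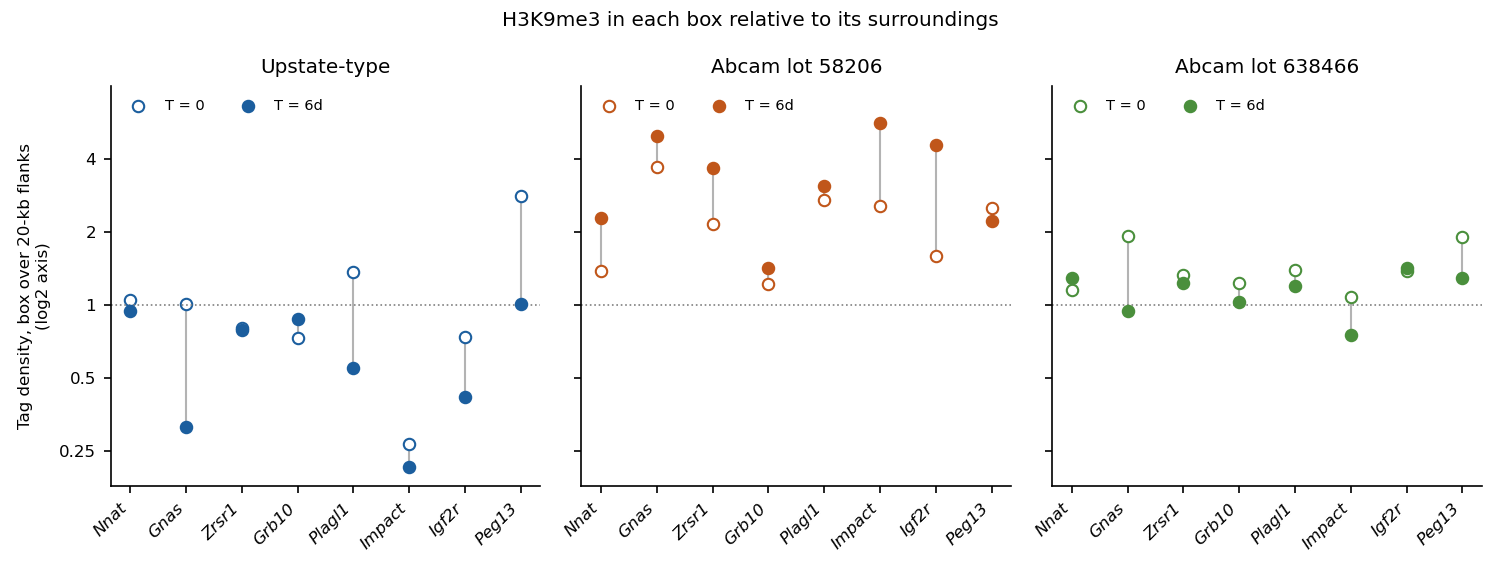
Tag density of each box divided by that of its 20-kb flanks (log2 axis, dotted line at 1), at *T* = 0 (open) and day 6 (filled), in 1 panel per antibody. With the Upstate-type antibody *Gnas* goes from 1.01 to 0.314 and *Peg13* from 2.83 to 1.01, while with lot 58206 *Igf2r* goes from 1.59 to 4.59 and *Impact* from 2.57 to 5.65.

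In several boxes the tags of lot 58206 were concentrated in a small part. The kb with the most tags over the 4 Abcam libraries, chosen after the values were seen, held 53.3% of the tags of the *Zrsr1* box at *T* = 0 (48 of 90) and 31 of the 62 tags of *Impact*. In these bins the tags on day 6 numbered 73 for *Zrsr1* and 58 for *Impact*. At *Igf2r* the bin just above the box centre went from 9 tags to 52, and at *Plagl1* the bin just below the centre went from 25 to 37. Upstate-type tags were few at some of these positions: the same kb held 2 of 41 tags at *Zrsr1* and 0 of 25 at *Igf2r* at *T* = 0. Its share of the Upstate-type tags of the box was 6.25% at *Peg13*, and was higher at *Impact* (16.7%), *Nnat* (18.5%), *Plagl1* (18.8%) and *Gnas* (19.4%). At *Grb10* 2 bins tied for the most Abcam tags (44 each), so no single kb was taken. A count of 0 in this bin allows up to 3 tags (a one-sided 95% limit, unlike the two-sided intervals given elsewhere). At *Zrsr1* the last 2 kb of the box held 15 and 16 of the 41 Upstate-type tags, and the first kb of the flank next to them held 25. Bins with many tags of lot 58206 also lay outside the boxes and held more on day 6: from 33 tags to 56 in the kb 5 to 6 kb above the centre of the *Nnat* box, where no kb of the box itself held over 28, and from 48 to 69 in the kb 18 to 19 kb above that of *Zrsr1*.

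At *Gnas* the first kb of the box, next to the flank, held 10, 20, 12 and 8 Upstate-type tags over the time course, and the other 7 kb held 52, 34, 6 and 10. The fall therefore lay in the interior of the box. In the same 7 kb lot 638466 went from 95 tags to 40 and lot 58206 from 152 to 199. With lot 58206 the bins went in both directions: the 2nd kb went from 42 tags to 70 and the 7th from 14 to 36, while the 4th went from 28 to 13 and the 5th from 22 to 7. The 4th and 5th kb thus had fewer tags on day 6 with all 3 antibodies, with 11 and 16 Upstate-type tags at *T* = 0 and 2 and 2 on day 6, and with 21 and 12 tags of lot 638466 at *T* = 0 and 7 and 4 on day 6. These bins were chosen after their values were seen and no test was made on them.

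At *Peg13* the Upstate-type tags were spread over the box at *T* = 0, from 3 to 13 per kb, and on day 6 every bin held 5 or fewer. With lot 58206 the kb with the most tags kept 19 and then 21, while the rest of the box went from 45 tags to 27. With lot 638466 the same kb went from 12 to 8 and the rest from 64 to 37.

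**Figure D4:**
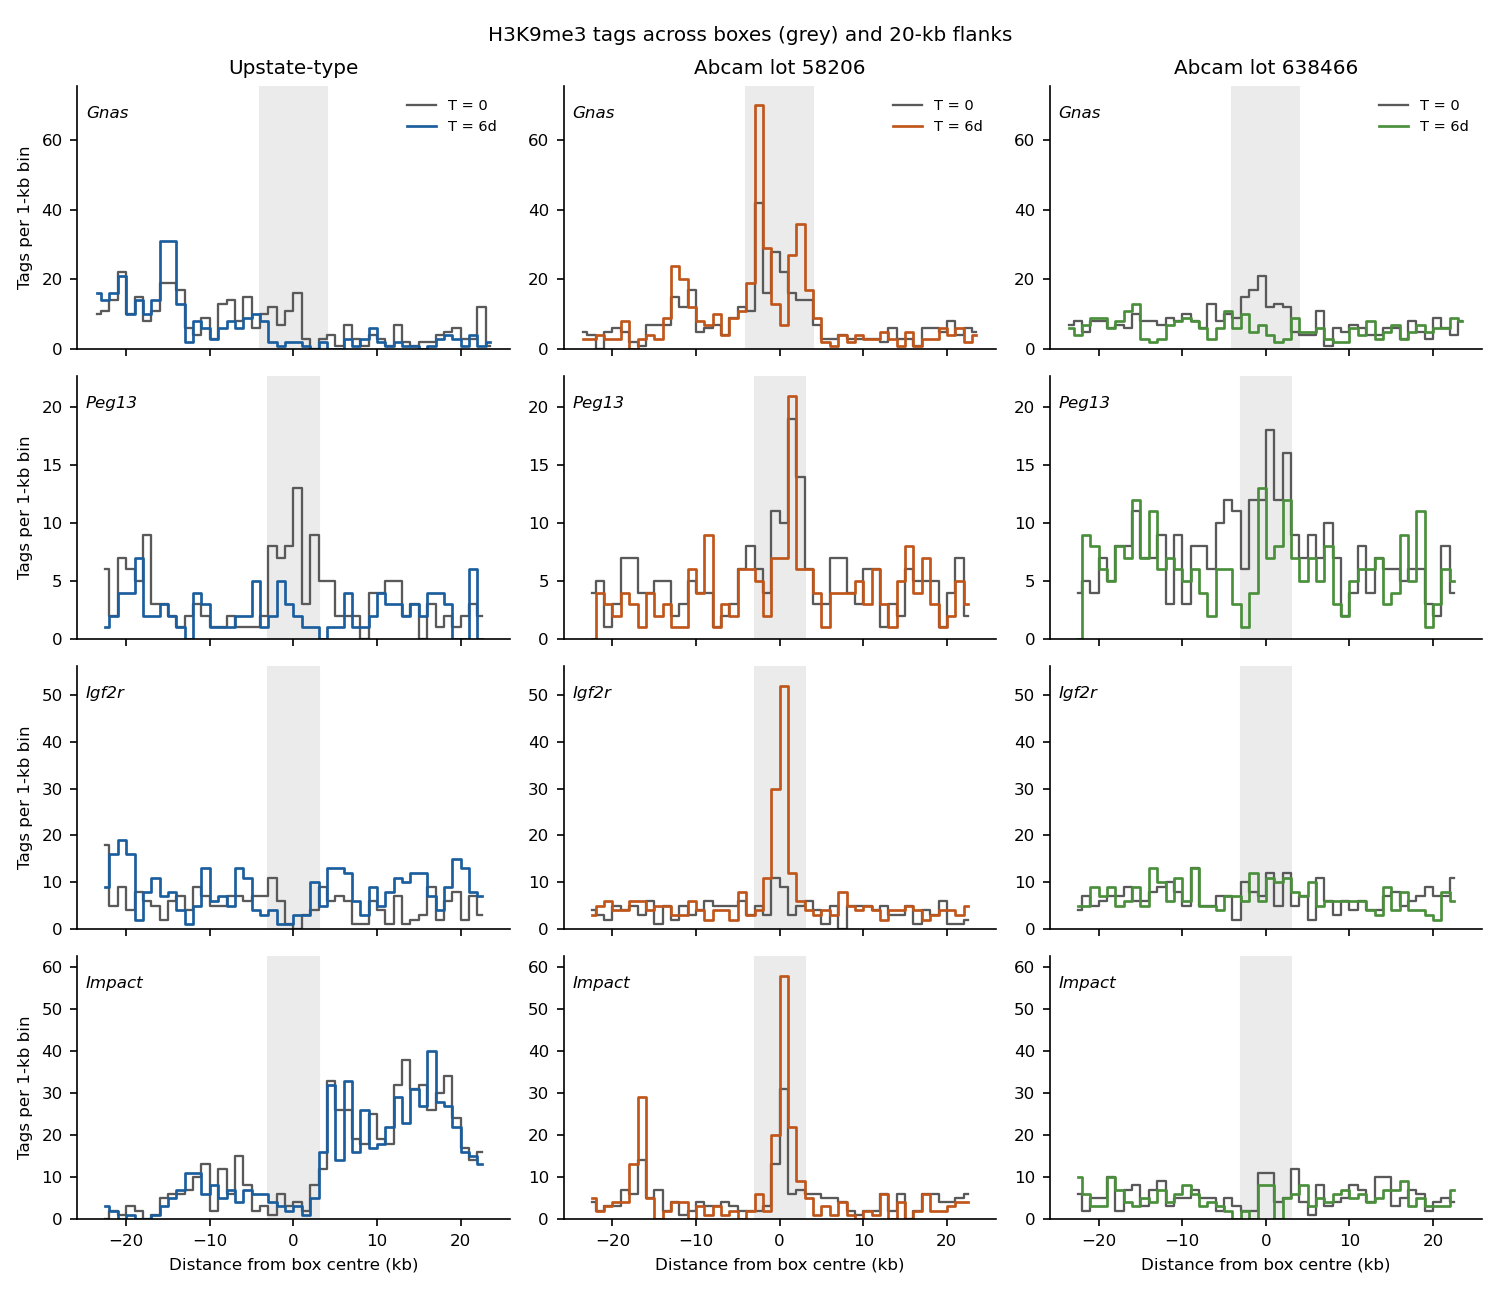
Tags per 1-kb bin across the boxes (grey) of *Gnas*, *Peg13*, *Igf2r* and *Impact* and 20 kb on each side, at *T* = 0 (dark grey) and day 6 (colour), for each antibody. The vertical scale is shared within a row; lot 58206 has 52 tags in 1 bin of *Igf2r* and 58 in 1 bin of *Impact* on day 6, and the Upstate-type tags next to *Impact* fill the flank on the right.

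The day 6 ratios to *T* = 0 of the antibodies were compared directly by a Fisher's exact test on the 4 libraries of each pair. Between the Upstate-type antibody and lot 638466 no box differed at adjusted *P* below 0.05, where 0.115% of all windows were higher and 0.253% lower with lot 638466, and the smallest *P* was that of *Peg13* (0.292 against 0.592, Fisher's exact test, *P* = 0.0472, adjusted *P* = 0.56). Between the Upstate-type antibody and lot 58206 the ratio of *Gnas* differed (0.29 against 1.34, Fisher's exact test, adjusted *P* = 7e-05), where 0.263% of all windows were higher with lot 58206, and that of *Igf2r* was close to the limit (0.88 against 3.19, adjusted *P* = 0.0516). Between the Abcam lots *Gnas* (1.34 against 0.442, adjusted *P* = 0.000138), *Igf2r* (3.19 against 1.04, adjusted *P* = 0.0171) and *Zrsr1* (1.77 against 0.689, adjusted *P* = 0.0295) differed, 3 of 8 boxes where 0.384% of all windows were lower with lot 638466. The pairs of antibodies share libraries, so these comparisons are not independent of each other.

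Across the 3 antibodies, with limma and the antibody as a term, 0 of 8 boxes were called on day 6 (adjusted *P* below 0.05 with a change over 1.5-fold), where 1.58% of all windows were called lower and 0.144% higher. At an unadjusted *P* below 0.05 there were 2 boxes, *Peg13* and *Gnas*, both lower, where 8.14% of all windows were lower and 6.62% higher at that limit. *Peg13* had a log2 fold change of -0.88 (SE 0.27; limma, adjusted *P* = 0.112) and was lower with 3 of 3 antibodies. *Gnas* had a log2 fold change of -0.76 (SE 0.34; limma, adjusted *P* = 0.295) and was lower with 2 of 3. *Gnas* was at -0.34 without the Upstate-type antibody (SE 1.21; limma, adjusted *P* = 0.952) and at -0.60 without lot 638466 (SE 0.49; adjusted *P* = 0.675). Without lot 58206, *Gnas* was called (-1.35, SE 0.28; limma, adjusted *P* = 0.0182), where 0.67% of all windows were called lower, and *Peg13* was at -1.12 (SE 0.3; adjusted *P* = 0.0913). The log2 fold changes of the other boxes were 0.48 for *Igf2r*, 0.22 for *Nnat*, 0.07 for *Grb10*, 0.01 for *Zrsr1*, 0.01 for *Impact* and -0.22 for *Plagl1*, with SE from 0.25 to 0.30.

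For comparison, boxes were placed on 6 maternally methylated DMRs of chromosomes 6 and 7 (*Peg10*, *Mest*, *Peg3*, *Snrpn*, *Inpp5f* and *Kcnq1ot1*) and on 3 paternally methylated ones (*H19*, the *Dlk1-Meg3* IG-DMR and *Rasgrf1*). With the Upstate-type antibody on day 6, 3 of the 6 maternal boxes were called lower with a median ratio of 0.439, beside 2 of 8 and 0.778 for the boxes described here. With lot 638466 the numbers were 4 of 6 with a median of 0.464, beside 2 of 8 and 0.73. With lot 58206, 0 of 6 were called lower and 2 of 6 higher with a median of 1.36, beside 0 and 4 of 8 and 1.56. Of the paternal boxes 2 of 3 were called lower with lot 58206, *H19* (70 tags to 23, ratio 0.329) and the *Dlk1-Meg3* IG-DMR (71 to 41, 0.577). *H19* also fell with the Upstate-type antibody (53, 27, 18 and 13 tags) and with lot 638466 (113 to 43). *Rasgrf1* was not called with any antibody, with day 6 ratios of 0.8 (Upstate-type), 1.34 (lot 58206) and 1.12 (lot 638466). The control region on chromosome 4 was not called with any antibody, with day 6 ratios of 0.689 (Upstate-type), 0.935 (lot 58206) and 1.1 (lot 638466). With the Upstate-type antibody it went from 90 tags to 62 (interval 0.49 to 0.963; Fisher's exact test, *P* = 0.0282, adjusted *P* = 0.27). No test was made between these groups of boxes, which also differed in their tags at *T* = 0, as given below.

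Windows that were already rich in the mark give another reading of the background. Of 544 windows whose pooled Abcam tags at *T* = 0 reached 3 times the median, 57.5% were called lower with the Upstate-type antibody on day 6, 62.9% with lot 638466 and 48.7% with lot 58206. Called higher were 2.02%, 0.0% and 14.2% of them. The Abcam libraries that chose these windows are also the reference of the Abcam ratios, while the Upstate-type libraries took no part in the choice. Of the 8 boxes only *Gnas* reached that level (3.85 times the median), and the others lay between 1.73 (*Igf2r*) and 2.9 (*Zrsr1*). On chromosomes 6 and 7 *Peg3* (3.85), *Kcnq1ot1* (3.6) and *Mest* (3.27) reached it. These were the 3 maternal boxes there called lower with the Upstate-type antibody on day 6. Of the paternal boxes *H19* (3.52) and the *Dlk1-Meg3* IG-DMR (3.0) reached it, and *Rasgrf1* (1.02) did not. The part of these starting levels in the calls was not tested.

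The 3 windows whose 5 ratios to *T* = 0 lay nearest to the median of the boxes, among 14479 with as many pooled Abcam tags, were chr6:142332001-142338000, chr8:9972001-9978000 and chr4:151308001-151314000. Their Euclidean distances on the log2 scale were 0.154, 0.156 and 0.177, while those of the boxes themselves ranged from 0.619 (*Zrsr1*) to 2.53 (*Peg13*). These windows were picked for being nearest, so their smaller distances say nothing of the boxes. Among the boxes *Gnas* (2.13) and *Peg13* were the farthest from the median.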

How the data were processed

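H3K9me3 ChIP-seq tags of 8 libraries were analysed, grouped by time point and antibody as the labels give them. Per the labels the build was mm9, and the study states that the authors kept tags with a unique match and 0 or 1 mismatch, equalised the totals of libraries that share an antibody and made intervals of 300 bp. The aligner is not given in the sources used here. The deposited files hold intervals only (another unit than a count per region, with no score), and 0 start positions were repeated within a library. Of other per-sample columns, 0 were set aside.

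Tags were counted by interval midpoint in the boxes, their 20-kb flanks and 6-kb windows of chromosomes 1 to 19 and X with Python 3.11.15, numpy 2.4.6, pandas 2.3.3, numba 0.67.0 and scipy 1.17.1. Of 439788 windows, 375480 with at least 0.5 times the median of pooled tags were tested. Two-sided Fisher's exact tests and exact binomial tests were adjusted by Benjamini-Hochberg over all windows and boxes. Intervals cover counting error only, at 95%, and *P* values measure the spread of tags between single libraries, which may be technical. A linear model with a term for the antibody was fitted with limma 3.58.1 (R 4.3.3, eBayes with a trend) to log2 values of tags per 1000000, after adding 0.5; these log2 values were computed from the deposited intervals. The replicate number is that of the antibody, which is no biological replicate. It pairs the libraries, since deviations from the means of the time points correlated within an antibody, with r = 0.71 (Upstate-type), 0.565 (lot 58206) and 0.468 (lot 638466) across windows.

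In 375480 simulated windows with 200 lowered 3-fold, the Fisher's exact test for day 6 of the Upstate-type antibody recovered 193 and called 0.536% of unchanged windows. The lowered windows were drawn only from those with many tags, more than *Nnat*, *Igf2r*, *Impact*, *Plagl1* or *Grb10* held with that antibody. Recovery at counts as low as theirs was not simulated. Simulated tags varied by counting error alone, so the share called leaves out any other spread between libraries. The test against the flanks recovered fewer of 200: 104 (52.0%) for the same comparison, 82 (41.0%) for lot 58206 and 42 (21.0%) for lot 638466. In the same number of windows with 200 changed 3-fold, again drawn from those with many tags, limma recovered 186 and called 0 unchanged ones. Figures were drawn with matplotlib 3.10.9.

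All 8 boxes were named, with *H19* and a control region as references and the 3 windows most like their median. The boxes, lists and tests were chosen with earlier results of these data known. Alternatives were other tag placement, box limits, scaling to background windows (below 1.5 times the median), flanks of 10 kb, other call rules, enriched windows, pseudocounts, filters, a model with no antibody term and omission of each antibody in turn. The available genome was another build, so no mm9 sequence or gene annotation was read at the boxes.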

Additional observations from a re-analysis of the deposited data

Results flagged for a closer look

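In 4 comparisons the change at a box differed between antibodies by a test of the difference itself (Fisher's exact test, adjusted over all windows). At *Gnas* the ratio of *T* = 6d to *T* = 0 was 4.61 times as high with lot 58206 as with the Upstate-type antibody, and with lot 638466 it was 0.331 times that with lot 58206. At *Zrsr1* the ratio with lot 638466 was 0.39 times that with lot 58206, and at *Igf2r* it was 0.325 times. Each of these differences involves the single libraries of lot 58206 at *T* = 0 and at *T* = 6d, and the part of either in them was not tested. No group had 4 or more libraries, so no test for a library far from the others of its group was made.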

How the results depend on the processing

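Of 200 ratios of a box recomputed with other tag placement, box limits or scaling, 180 kept their side of 1 and of the threshold, 11 crossed 1, 1 lost its call, and 8 uncalled ones were at 1 (to 3 digits) as reported or recomputed. Those of *Gnas* and *Peg13* at *T* = 4d and *T* = 6d with the Upstate-type antibody were among them, but their size moved: with boxes narrowed and widened by 1 kb at each side *Gnas* was at 0.102 and 0.597 at *T* = 4d and at 0.163 and 0.389 at *T* = 6d, and *Peg13* with widened boxes was at 0.345 at *T* = 4d (0.229 as reported). With boxes narrowed by 1 kb at each side, *Peg13* with lot 638466 was no longer called (0.593, Fisher's exact test, *P* = 0.023), which left 1 box called lower, and ratios turned for *Nnat* at *T* = 2d (1.3), *Zrsr1* at *T* = 4d (1.09) and *Grb10* at *T* = 6d (0.778). With boxes widened by 1 kb, they turned for *Nnat* (1.1), *Gnas* (1.01), *Grb10* (1.12) and *Impact* (1.26) at *T* = 2d, *Zrsr1* at *T* = 4d (1.03), *Impact* at *T* = 6d (1.03) and *Plagl1* with lot 638466 (1.06). Scaled to background windows, *Igf2r* with lot 638466 was at 0.94. None of the ratios that turned was called, and for each change listed here the cause was not tested.

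At an adjusted *P* below 0.05, 1 box was called lower with lot 638466. With flanks of 10 kb, 0 boxes were lower than their flanks at *T* = 4d and at *T* = 6d with the Upstate-type antibody, and uncalled ratios to the flanks turned for *Grb10* (0.887) and *Igf2r* (0.999) at *T* = 2d, *Plagl1* at *T* = 4d (1.45), and *Nnat* (0.943) and *Igf2r* (0.939) with lot 638466.

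In limma, a pseudocount of 0.1 turned *Zrsr1* (-0.006) and *Impact* (-0.025), and scaling to background windows turned *Impact* (-0.003). Without the replicate block, that is without the antibody term, *Gnas* kept a log2 fold change of -0.76 with an SE of 1.33. In that model 0 boxes were called, as with the block. Of all 375480 windows 0 were called there too, so this count says nothing of the boxes. Leaving out each antibody in turn gave 0 to 1 boxes called lower, and log2 fold changes from -0.072 to 0.28 for *Grb10*, -0.43 to 0.051 for *Plagl1*, -0.061 to 0.46 for *Nnat*, -0.38 to 0.25 for *Zrsr1*, -0.43 to 0.26 for *Impact*, -0.057 to 0.81 for *Igf2r*, -1.35 to -0.34 for *Gnas* and -1.12 to -0.54 for *Peg13*. *Grb10* and *Plagl1* were not tested with the filter at 2 times the median. The depth limits the low boxes: with 14 to 27 Upstate-type tags at *T* = 0, ratios above 0.143 (*Grb10*) to 0.37 (*Nnat*) could not be called lower.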
